A study of Mus musculus with 16 samples.

Results

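Mucus of the small intestine is built and guarded by a small set of secreted and membrane proteins that are usually listed as products of goblet cells. Their transcripts were followed here in Paneth cells, the neighbouring granular cells at the crypt base that secrete lysozyme and α-defensins. The set was given as a list of 9 named genes (Muc2, Tff3, Fcgbp, Zg16, Clca1, Agr2, Spink4, Retnlb and Muc13), out of 55414 gene identifiers in the table of read counts. All 9 were found in the table, and all 9 were among the 11809 genes with enough reads to be tested.

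Muc2 is the gel-forming mucin of the intestine, a very large glycoprotein that leaves its granules folded and unfolds into a net. Fcgbp, Clca1 and Zg16 are secreted into that net, Tff3 is a small trefoil peptide stored with the mucin, and Agr2 is an endoplasmic reticulum protein of the disulfide isomerase family that Muc2 production needs. Goblet and Paneth cells arise from related secretory precursors, and transcripts of one are often detected in the other.

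The libraries were made from FACS-sorted Paneth cells of the small intestine of C57BL/6J mice, with 1 library for each mouse and 4 libraries in each of 4 groups. Every mouse received a pair of injections 1 h apart, and tissue was taken 3 h after the second one. The controls received PBS both times (PBS+PBS), and the second group received tumour necrosis factor after PBS (PBS+TNF). In the third group DEX preceded PBS (DEX+PBS) and in the fourth it preceded TNF (DEX+TNF), where DEX is the usual abbreviation of the glucocorticoid dexamethasone. Ages, doses and the sexes in each group are not given in the sources used here. The counts summed to between 7286307 and 15832111 per library.

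Levels are given as normalized CPM, where CPM is a count scaled to a fixed library total, after division by the library's TMM factor (trimmed mean of M values), which adjusts for a few abundant transcripts taking up reads. A gene was called in a comparison when its p from edgeR's quasi-likelihood test, adjusted by the Benjamini-Hochberg method over all 11809 genes, was under 0.05. In bulk RNA, fewer cells of a type and less RNA per cell cannot be told apart.

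4 libraries, 1 in each group, stood apart from the other 12: DEX+TNF 3, DEX+PBS 3, PBS+TNF 1 and PBS+PBS 4. Their scaling factors were 0.418 to 0.755 against at least 1.02 in the other 12, their α-defensin (Defa) reads made up 47.5 to 59.3% of counts against 32.2 to 40.9%, and Mmp7, the enzyme that processes Defa proteins, reached 10979 to 17408 normalized CPM against 2989.7 to 6828. On plain CPM, without the scaling factor, the Mmp7 ranges overlapped, with 7268 to 8594 against 4143 to 7350. The 4 libraries also held relatively fewer reads of long transcripts, with a slope of log2 CPM on log2 transcript length of -0.38 to -0.16 against -0.062 to 0.18. The libraries DEX+TNF 3 and 4 went against their label at Nfkbia, a rapid TNF target, with 28.3 and 41.0 normalized CPM against 329.97 and 382 in DEX+TNF 1 and 2, 277 to 337 in PBS+TNF and 15.6 to 27.3 in the 8 libraries that received PBS second. Sgk1, a glucocorticoid target, was at 17.6 to 115 normalized CPM in all 8 DEX libraries and at 1.11 to 7.94 in the other 8. DEX+TNF 4 also had the highest summed enterocyte, stem and tuft cell markers of all 16 libraries (1359, 2037 and 1007 CPM). The 10 Paneth markers summed to 178144 to 284098 CPM in every library, the 25 measured goblet markers outside the 9 genes summed to 4055 to 7904 CPM, and the 9 immune markers summed to 42.5 to 389.7 CPM, led by Cd74, with Cd3e, Cd8a and Ms4a1 of lymphocytes at 0 in all libraries. The part of immune cells in the members' levels was not tested.

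The 9 genes lie on 6 chromosomes (GRCm39 coordinates, all protein coding). Muc2 is at chr7:141276583-141308430 on the plus strand, with 48 exons and a transcript of 13916 bases. Fcgbp is at chr7:27770661-27820287 (plus, 20 exons, 7928 bases), and Zg16 at chr7:126649302-126686500 (minus, 4 exons, 708 bases). Tff3 is at chr17:31344280-31348620 (minus, 3 exons, 493 bases), Clca1 at chr3:144709578-144738537 (minus, 14 exons, 3655 bases) and Agr2 at chr12:36042904-36054086 (plus, 8 exons, 786 bases). Spink4, a Kazal-type inhibitor of serine peptidases, is at chr4:40920044-40931396 (plus, 5 exons, 588 bases). Retnlb, the resistin-like peptide RELMβ, is at chr16:48637219-48639255 (plus, 4 exons, 696 bases), and Muc13, a mucin anchored in the cell membrane, is at chr16:33614407-33640304 (plus, 12 exons, 2942 bases). The set thus runs from 3 exons and 493 bases to 48 exons and 13916 bases. Zg16 shares bases with the antisense genes Gm44939 and Gm22747 and Muc13 with the antisense gene Gm15657. The library kit keeps the strand, but whether strand was used in counting is not stated, so reads of these pairs may have been mixed.

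Agr2 was among the members that were highest in the libraries that stood apart, and Muc2 was the one that fell farthest below its group there. The 250 bases before the start of the canonical transcript are shown for these 2 genes, read from GRCm39 5′ to 3′ on the plus strand, which is the strand of both. Capitals mark matches to 6 short motifs searched on both strands. Forkhead factors of the FOXA type are known for sites holding TGTTTAC, and the caudal homeobox factors of the intestine, CDX, for TTTATNG. The E-box searched, a site type of basic helix-loop-helix factors such as Atoh1, was CAGCTG. The general promoter elements were the CCAAT box, spelled as its name, and the TATA box in the form TATAAA. The last was the core of the ER stress response element, CCACG. The windows are chr7:141276333-141276582 for Muc2 and chr12:36042654-36042903 for Agr2.
Muc2: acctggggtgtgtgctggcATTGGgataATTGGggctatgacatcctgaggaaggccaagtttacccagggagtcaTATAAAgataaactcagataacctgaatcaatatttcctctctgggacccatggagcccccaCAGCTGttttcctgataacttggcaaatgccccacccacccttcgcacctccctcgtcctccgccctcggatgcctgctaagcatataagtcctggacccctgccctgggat
Agr2: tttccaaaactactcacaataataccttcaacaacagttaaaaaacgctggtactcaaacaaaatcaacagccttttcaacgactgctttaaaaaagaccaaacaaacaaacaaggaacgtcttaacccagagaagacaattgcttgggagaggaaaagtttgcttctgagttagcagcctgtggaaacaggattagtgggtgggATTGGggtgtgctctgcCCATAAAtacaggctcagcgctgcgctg
The Agr2 window held a CDX match 28 bases before the start and a CCAAT match 45 bases before it. A CDX match was found in 9.57% of 21770 mouse promoter windows of this length. Muc2 held an E-box (11.9% of all windows), 2 CCAAT matches (36.5% of windows held at least 1) and a TATA match 174 bases before the start (11.9%). Neither window held the FOXA match (2.72% of all windows) or the ER stress core (30.4%). GC content was 53.2% for Muc2 and 42.8% for Agr2, against a median of 53.2% over all windows. The motifs were chosen with the expression values known, and a match describes letters only.

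Spink4 carried most of the reads of the set. The 9 genes together took 1.05 to 2.48% of all counts in a library, and Spink4 alone 0.505 to 1.61%. On the scale of normalized CPM per kilobase of transcript, the median over 16 libraries was 15304 for Spink4, 1033 for Agr2, 941 for Tff3, 381 for Muc13, 209.9 for Muc2, 160.3 for Clca1, 158 for Retnlb, 17.5 for Fcgbp and 4.44 for Zg16. Spink4 was above Agr2, and Muc13 above Muc2, in 16 of 16 libraries, and Tff3 was above Muc13 in 15. The neighbours Agr2 and Tff3 (higher in 10 of 16), Muc2 and Clca1 (7 of 16) and Clca1 and Retnlb (9 of 16) changed places from library to library, so their order did not hold beyond the spread.

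All members differed more between mice of 1 group than most genes did, Muc13 only slightly (59.4% of genes had a smaller SD). The SD of log2 normalized CPM within groups was 2.38 for Clca1, 2.31 for Zg16, 1.53 for Retnlb, 1.16 for Agr2, 1.12 for Tff3, 1.08 for Muc2, 1.02 for Fcgbp, 0.94 for Spink4 and 0.44 for Muc13, where the median over 7817 genes averaging 5 CPM or more was 0.40. Over the 12 libraries alone it was 0.63 for Muc2, 0.60 for Tff3, 0.59 for Agr2, 0.54 for Spink4 and 0.26 for Muc13, but still 2.26 for Clca1, 2.12 for Zg16, 1.42 for Retnlb and 1.07 for Fcgbp. From the lowest to the highest library the level changed 325-fold for Clca1, 67.1-fold for Fcgbp, 40.3-fold for Retnlb and 2.46-fold for Muc13. On plain CPM, without the scaling factor, the ranges were 184-fold for Clca1, 226-fold for Fcgbp, 52.5-fold for Retnlb and 6.90-fold for Muc13. Zg16 had no read in PBS+TNF 4, which allows up to 0.148 normalized CPM (3 counts, counting error only), at least 400.2-fold below its highest library.

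**Figure D1:**
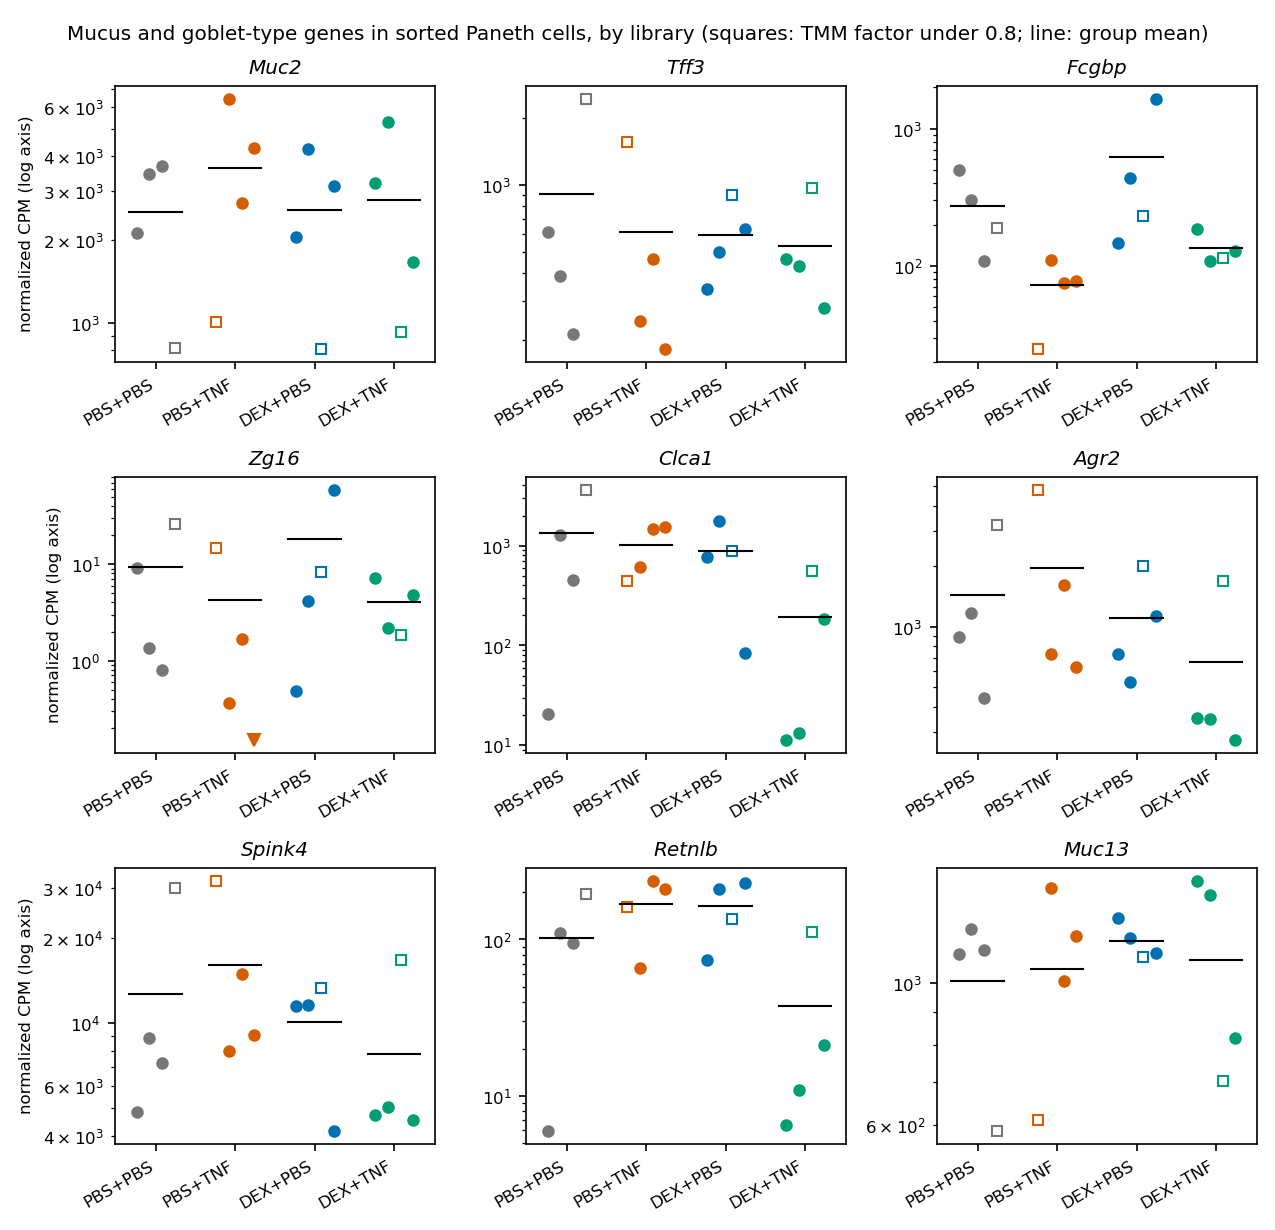
Normalized CPM of each of the 9 genes in the 16 libraries (log axis), by injection group, with squares for the 4 libraries with a scaling factor under 0.8, circles for the other 12, a line at the group mean and a triangle at the 3-count limit where no read was counted. In Muc2 and Muc13 the squares lie at the bottom of their groups, and in Tff3, Agr2 and Spink4 at the top.

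Muc2 was measured at 2119, 3441, 3683 and 812 normalized CPM in PBS+PBS libraries 1 to 4 and at 1007, 6459, 2712 and 4278 in PBS+TNF. In DEX+PBS it was at 2044, 4256, 803 and 3132, and in DEX+TNF at 3212, 5301, 929 and 1666. The lowest library of every group was the one that stood apart, and the 4 groups overlapped throughout. Muc13 was also lowest in the library that stood apart in 4 of 4 groups, over a smaller range, with 1109.7, 1214, 1127 and 587 in PBS+PBS, 611, 1405, 1006 and 1183 in PBS+TNF, 1262, 1175, 1097 and 1113 in DEX+PBS and 1445, 1372, 703 and 822 in DEX+TNF. Its SD within groups was close to that of the median gene, and the group means lay between 1009 ± 285 (SD, n = 4, PBS+PBS) and 1162 ± 75.2 (SD, n = 4, DEX+PBS).

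Tff3, Agr2 and Spink4 were arranged the other way round. Tff3 was at 612, 389.7, 213 and 2440.3 normalized CPM in PBS+PBS, 1556, 245, 465 and 182 in PBS+TNF, 342, 497, 904 and 635 in DEX+PBS and 462, 431, 964 and 279 in DEX+TNF. Agr2 was at 889, 1177, 443 and 3233 in PBS+PBS, 4828, 735, 1624 and 629 in PBS+TNF, 734, 529, 2019.8 and 1128 in DEX+PBS and 351, 349, 1696 and 272 in DEX+TNF. Both genes, and Spink4 with them, had their highest value of every group in the library that stood apart, whereas Retnlb and Zg16, of similar transcript length, did in 2 of 4 groups. Spink4 reached 16741, 13379.8, 31979.9 and 29997 in DEX+TNF 3, DEX+PBS 3, PBS+TNF 1 and PBS+PBS 4, against 4144 to 14964 in the other 12 libraries. On plain CPM, without the scaling factor, these libraries were still the highest of their group in 3 of 4 groups for Tff3 and Agr2 and in 2 of 4 for Spink4, and still the lowest in 4 of 4 for Muc2 and Muc13.

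Clca1, a secreted protein that cleaves Muc2 in the mucus layer, ranged widely inside every group. It was at 20.4, 1278, 455 and 3639 normalized CPM in PBS+PBS, 445, 613, 1461 and 1543 in PBS+TNF, 768, 1779, 879 and 83.1 in DEX+PBS and 11.2, 13.2, 559 and 184 in DEX+TNF. Retnlb, which acts on bacteria in the lumen, was at 5.91, 109, 95.1 and 196 in PBS+PBS, 161, 66.0, 238 and 211 in PBS+TNF, 74.3, 211, 136 and 230.2 in DEX+PBS and 6.53, 10.9, 111 and 21.1 in DEX+TNF. PBS+PBS 1, DEX+TNF 1 and DEX+TNF 2 were the 3 lowest libraries for both genes, and DEX+PBS 4 was low for Clca1 only. Among pairs of libraries of the same group, DEX+TNF 1 and 2 were also the pair with the most similar counts over all genes. They still differed by more than sampling noise, and pairs across groups were not compared.

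Fcgbp, a large protein that binds to the Muc2 net, was at 496, 303, 108 and 190.0 normalized CPM in PBS+PBS, 24.7, 110.0, 75.6 and 77.8 in PBS+TNF, 148, 439, 230.5 and 1655 in DEX+PBS and 184, 108, 115 and 129 in DEX+TNF. Only 1 value of PBS+TNF reached the range of PBS+PBS. Zg16, a lectin-like protein that binds Gram-positive bacteria, was at 9.08, 1.34, 0.801 and 26.3 in PBS+PBS, 14.8, 0.362, 1.69 and 0 in PBS+TNF, 0.485, 4.10, 8.25 and 59.4 in DEX+PBS and 7.18, 2.18, 1.84 and 4.84 in DEX+TNF. Both were highest in DEX+PBS 4, the library with the highest sum of the other goblet markers (7904 CPM).

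The effect of TNF alone was read from PBS+TNF against PBS+PBS. None of the 9 members was called by edgeR, where 12.5% of all tested genes were, and 1 member had an unadjusted p under 0.05 (26.4% of all genes). That member was Fcgbp, with 72.03 ± 35.3 normalized CPM after TNF and 274 ± 168 after PBS (SD, n = 4 each). Its log2 fold change was -1.93, with an SE of 0.64 and an adjusted p of 0.0596 in edgeR. 5 members had a positive and 4 a negative estimate, with a median of 0.059 (median of all genes -0.035) and a median SE of 0.71. No member's groups were free of overlap, against 19.5% of all genes. DESeq2, which called 17.5% of all genes, called Fcgbp (log2 fold change -1.93, adjusted p = 0.0117) and no other member. The edgeR call of Fcgbp also appeared when PBS+PBS 3 (adjusted p = 0.0462), DEX+PBS 1 (0.0440) or DEX+PBS 4 (0.0182) was left out. Over all alternatives its adjusted p ran from 0.0117 to 0.404.

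DEX alone, DEX+PBS against PBS+PBS, gave no call among the members (0.00847% of all genes were called), none at an unadjusted p under 0.05 (1.9% of all genes), none by DESeq2 (0.0594% of all genes) and none without overlap between the groups (1.88%). Every adjusted p was 1. The most positive estimate was that of Fcgbp, 618 ± 702 against 274 ± 168 normalized CPM (log2 fold change 1.17, SE 0.63), and without DEX+PBS 4, the library at 1655, it was -0.014. Zg16 (1.00, SE 1.35) turned to -1.11 without the same library. Muc2 (0.026, SE 0.64) and Muc13 (0.20, SE 0.33) had estimates smaller than their SE.

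TNF after DEX was compared with TNF after PBS (DEX+TNF against PBS+TNF) and with DEX alone (DEX+TNF against DEX+PBS). Neither comparison called a member with edgeR (0.339% of all genes in each), with 1 and 2 members at an unadjusted p under 0.05 (11.9 and 10.4% of all genes) and 0 and 1 called by DESeq2 (2.32 and 2.2% of all genes). No member's groups were free of overlap (6.38 and 4.68% of all genes were). Against PBS+TNF, 6 members had lower and 3 higher estimates, with a median log2 fold change of -0.38 (all genes 0.033). The lowest were Clca1 (-2.40, SE 1.27), Retnlb (-2.18, SE 0.86, edgeR adjusted p = 0.321) and Agr2 (-1.55, SE 0.76). Without PBS+TNF 1 the estimate of Agr2 was -0.56 and that of Spink4 -0.44 in place of -1.04, and without DEX+TNF 3 that of Agr2 was -2.59, of Clca1 -3.87 and of Retnlb -3.71. Against DEX+PBS, 8 were lower and 1 higher, with a median of -0.73 (all genes 0.035), and the lowest were Fcgbp (-2.21, SE 0.65, edgeR adjusted p = 0.173), Clca1 (-2.19, SE 1.26), Zg16 (-2.17, SE 1.41) and Retnlb (-2.13, SE 0.86). Without DEX+PBS 4, the library highest for both, Zg16 was at -0.078 and Fcgbp at -1.02, and Clca1 was at -1.59 without DEX+PBS 2 and at -3.65 without DEX+TNF 3. These comparisons share the DEX+TNF libraries. Fcgbp was the member DESeq2 called (adjusted p = 0.0191). The interaction, the effect of TNF after DEX minus that after PBS, gave 0 calls (0% of all genes), 0 by DESeq2 (0.0763%) and 1 unadjusted p under 0.05 (5.44% of all genes), that of Retnlb (-2.87, SE 1.19, adjusted p = 0.884, and -4.40 without DEX+TNF 3).

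The calls of Clca1 and Retnlb in DEX+TNF depended on the 2 libraries without a TNF response at Nfkbia. Without DEX+TNF 3 and 4, edgeR called both as lower than in DEX+PBS, Retnlb at -4.22 (SE 1.02, adjusted p = 0.0158) and Clca1 at -6.17 (SE 1.73, adjusted p = 0.0349). Of all genes 10.5% were called in that comparison then (1286 against 40 with all libraries). Without DEX+TNF 3 alone, Retnlb was called (-3.66, adjusted p = 0.0275), as were 3.01% of all genes. Only 2 libraries then represent DEX+TNF, and PBS+PBS 1 was as low as they were in Retnlb and close to them in Clca1. Without the 4 libraries that stood apart, no member was called in any of the 5 comparisons, the smallest edgeR adjusted p being 0.159, 1, 0.222, 0.0946 and 0.650 in the order given. Of all genes, 255 were called then in DEX+TNF against DEX+PBS, 2 in DEX+TNF against PBS+TNF and 0 in DEX+PBS against PBS+PBS. The counts over all genes in PBS+TNF against PBS+PBS and in the interaction are not given here.

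**Figure D2:**
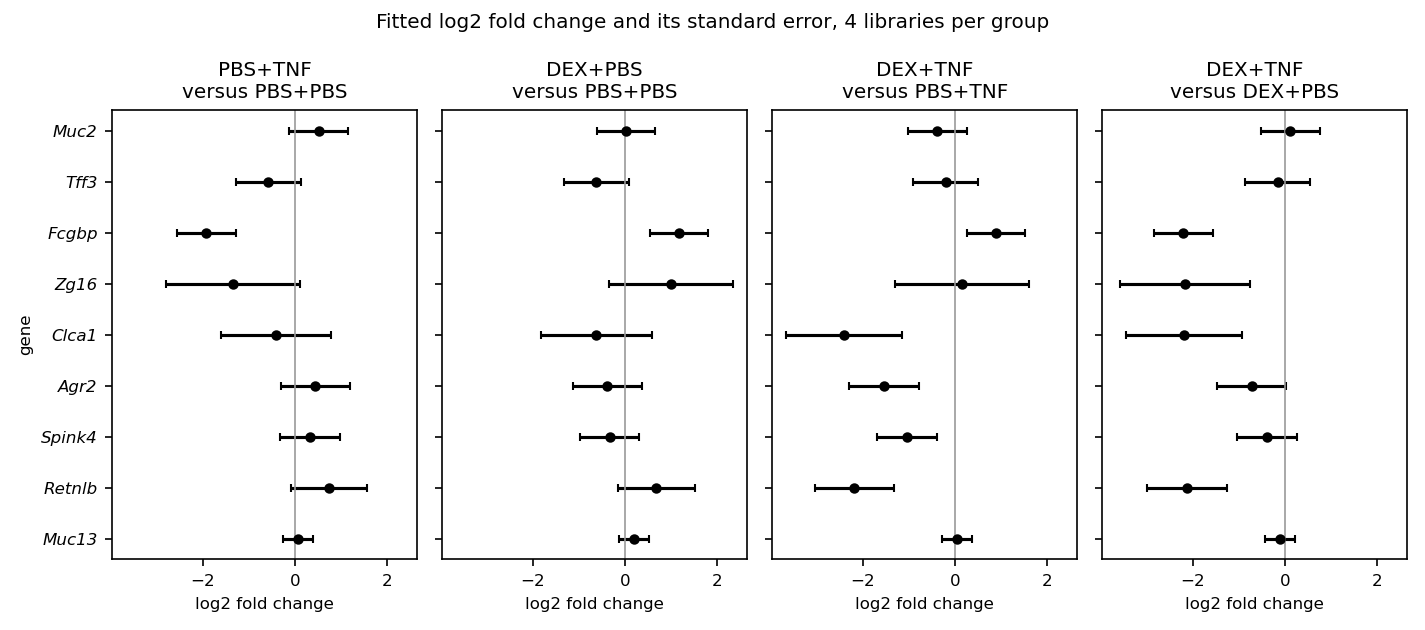
Log2 fold changes of the 9 genes in the 4 pairwise comparisons, as points with bars of 1 SE from edgeR over all 16 libraries, 4 in each group. Muc13 has the shortest bars and Zg16 and Clca1 the longest, and the estimates of Fcgbp, Clca1, Zg16 and Retnlb reach below -2 in at least 1 comparison with DEX+TNF.

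A ratio of 2 genes in 1 library does not depend on the scaling factor, so each member was also set against Muc2. None of 32 comparisons of log2 ratios passed (8 genes, 4 pairs of groups, two-sided exact permutation test with 0.0286 as its smallest possible p). The ratio of Fcgbp to Muc2 was 0.234, 0.0881, 0.0295 and 0.234 in PBS+PBS and 0.0246, 0.0171, 0.0279 and 0.0182 in PBS+TNF, so that these groups did not overlap. The difference was -2.34 on the log2 scale, with an exact permutation p = 0.0286 and an adjusted p of 0.914. This p is the smallest possible, so a single ratio could not pass after adjustment over 32 comparisons. The lack of a pass therefore does not show that the ratios were alike.

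Whether the members moved together was measured within groups, as Pearson's r between the libraries' deviations from their group mean of log2 normalized CPM, with an exact permutation test (two-sided) and adjustment over the 36 pairs. Over 16 libraries 14 pairs passed, 7 positive and 7 negative, but the libraries fall into clusters of 4 and 12 and the pooled coefficients include that split. Among the 12 libraries alone no pair passed (smallest adjusted p = 0.294 over 36 pairs), so each r is given for 16 and for 12 libraries.

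Tff3 and Agr2 had the highest r, 0.92 over 16 libraries (Spearman's rho 0.92, adjusted p of r = 0.00401 by exact permutation, r 0.87 without the 2 libraries farthest from the median of Tff3) and 0.79 over 12. Muc2 and Muc13 followed with 0.85 (rho 0.82, adjusted p = 0.00765 by exact permutation, r 0.90 without the 2 farthest) and 0.70 over 12. Tff3 and Zg16 gave 0.75 and 0.78 (rho 0.76, adjusted p = 0.0223 by exact permutation, r 0.53 without the 2 farthest). Clca1 correlated with Retnlb (0.80 over 16 and 0.70 over 12, rho 0.67, adjusted p = 0.0295 by exact permutation) and with Spink4 (0.66 and 0.69). The r of Clca1 and Retnlb was 0.29 without the 3 libraries with the least Clca1. The r of Spink4 with Agr2 and Tff3 differed between the sets of libraries: with Agr2 it was 0.78 over 16 and -0.037 over 12 libraries, and with Tff3 0.74 and -0.15.

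The 7 negative pairs set Muc2 and Muc13 against Tff3, Agr2 and Spink4, with Fcgbp against Spink4 as the seventh. Muc2 and Agr2 had r = -0.84 over 16 libraries (rho -0.77, adjusted p = 0.00980 by exact permutation, r -0.77 without the 2 farthest) and -0.29 over 12. The other pairs of these 5 genes lay between -0.77 and -0.75 over 16 libraries and between -0.11 and 0.029 over 12. Fcgbp and Spink4 had -0.62 over 16 (rho -0.72) and -0.73 over 12. Fcgbp and Zg16, which did not pass over 16 libraries (r = 0.26), had 0.85 over 12. The count of 14 pairs fell to 3 without PBS+PBS 4, to 4 without PBS+TNF 1, to 3 without PBS+TNF 3, to 4 without DEX+TNF 3 and to 9 without PBS+TNF 2. On plain CPM, 10 of the 14 pairs passed again and all 14 kept their sign. The pairs that did not pass were Spink4 with Tff3 (r = 0.16), Agr2 (0.35), Muc2 (-0.48) and Muc13 (-0.51). Spink4 did pass with Clca1 (0.84) and Fcgbp (-0.59).

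**Figure D3:**
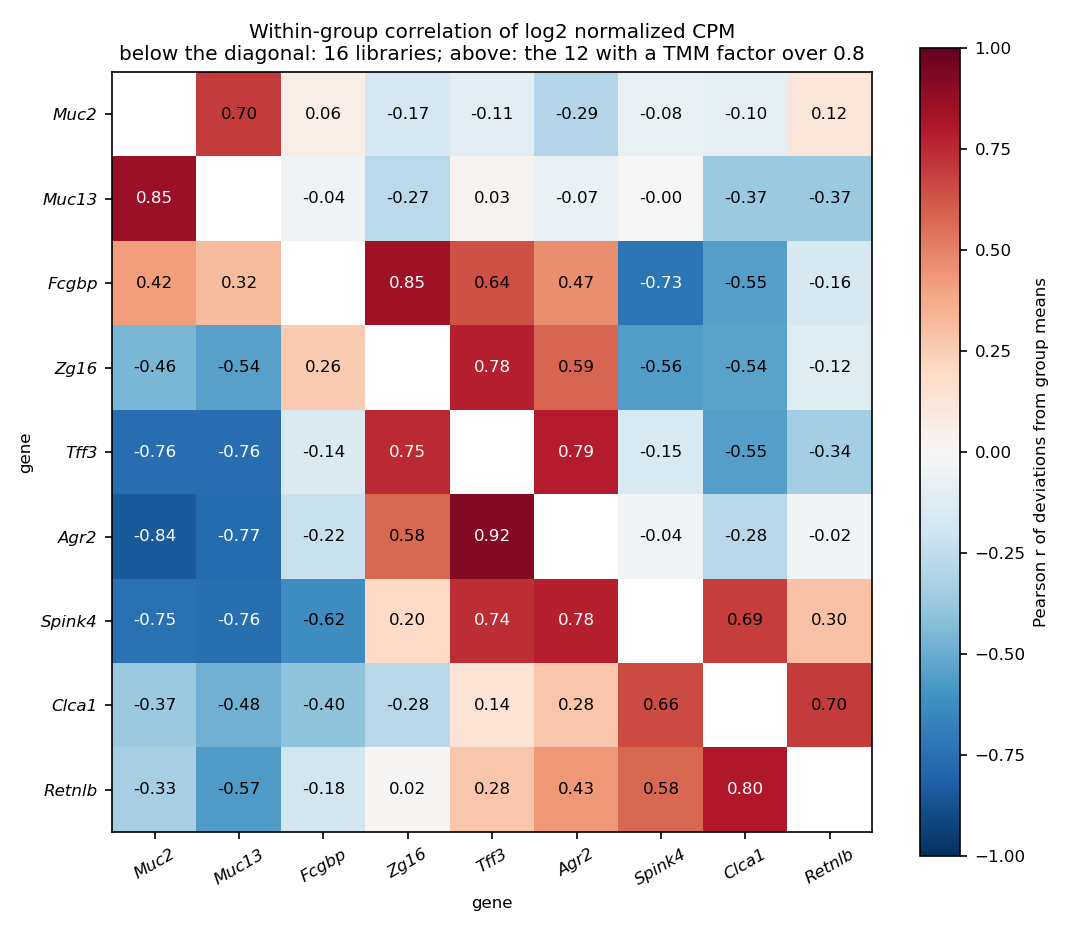
Pearson's r between the within-group deviations of each pair of the 9 genes, over all 16 libraries (below the diagonal) and over the 12 libraries with scaling factors above 0.8 (above it), on a colour scale from -1 to 1. The negative values between Muc2 or Muc13 and Tff3, Agr2 or Spink4 over 16 libraries lie between -0.29 and 0.029 over 12, whereas Tff3 with Agr2 (0.92 and 0.79) and Muc2 with Muc13 (0.85 and 0.70) stay positive.

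The members that diverged also differ in length, with Muc2 and Muc13 longer than Tff3, Agr2 and Spink4. The length slope of a library correlated within groups with Muc2 (r = 0.90 over 16 libraries, rho 0.79, adjusted p = 0.00321 by exact permutation, 0.84 without the 2 farthest) and with Muc13 (0.91, rho 0.88, adjusted p = 0.00321, 0.79). The r was negative for Agr2 (-0.91, rho -0.80, adjusted p = 0.00443, -0.86), Tff3 (-0.87, rho -0.71, adjusted p = 0.00848, -0.64) and Spink4 (-0.87, rho -0.71, adjusted p = 0.00848, -0.71). Over the 12 libraries the 5 values were 0.59, 0.73, -0.54, -0.24 and -0.29. Fcgbp, the second longest transcript, gave 0.37 over 16 and -0.0026 over 12. Clca1, at 3655 bases longer than Muc13 (2942), gave -0.52 and -0.39. The short transcripts of Retnlb (-0.61 and -0.57) and Zg16 (-0.51 and -0.26) were negative too. None of Fcgbp, Clca1, Retnlb and Zg16 passed. With the trend on transcript length removed from each library, 3 of 36 pairs passed: Muc2 with Muc13 (r = 0.81), Tff3 with Agr2 (0.77) and Tff3 with Zg16 (0.71). The part of fragment length, RNA quality or library preparation in these values was not tested.

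**Figure D4:**
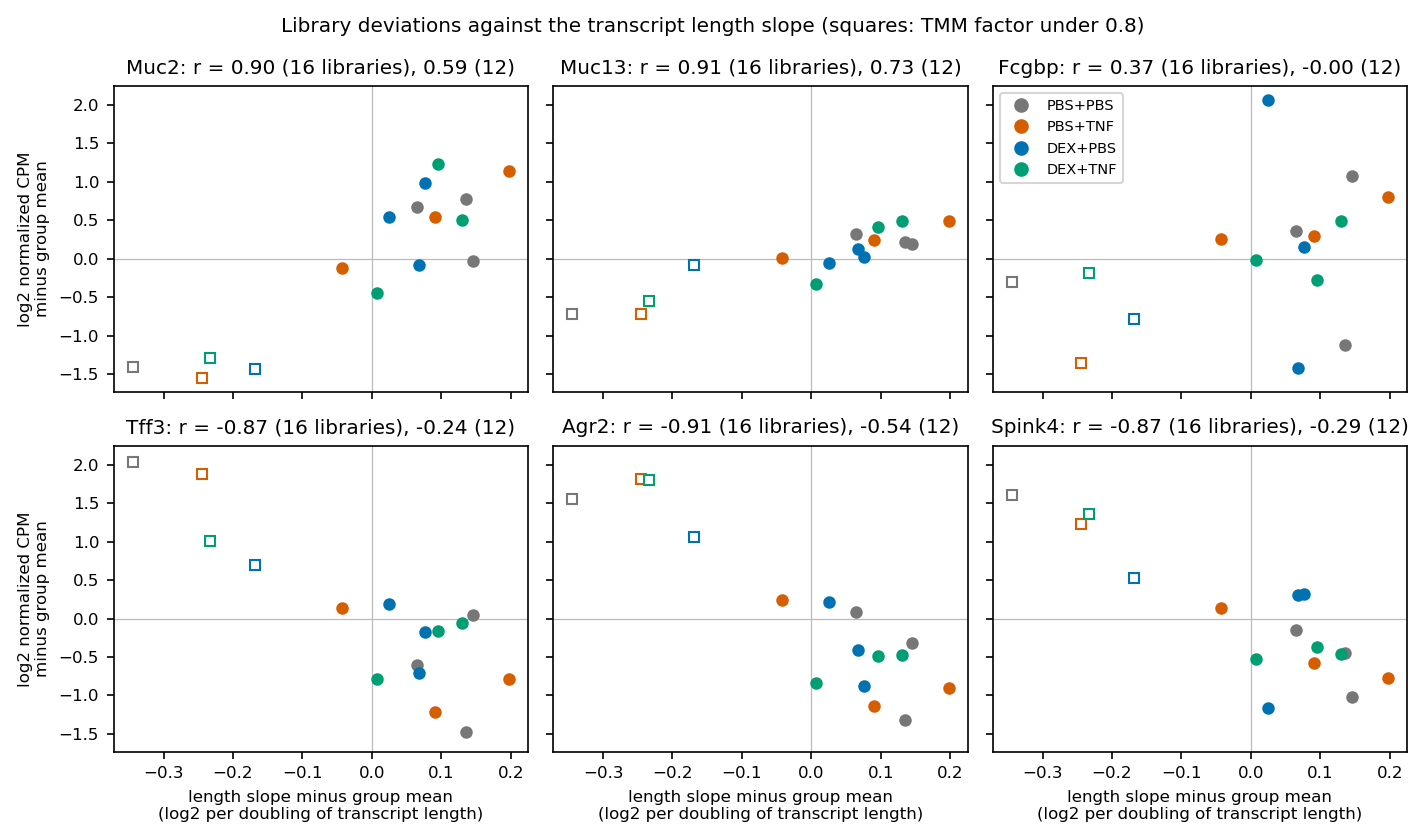
Deviation from the group mean of log2 normalized CPM (vertical) against that of the library's length slope (horizontal, log2 CPM per doubling of transcript length) for 6 of the genes in 16 libraries, coloured by group, with squares for the 4 that stood apart. Muc2 and Muc13 rise and Tff3, Agr2 and Spink4 descend along the slope, Fcgbp shows no such order (r = 0.37), and each panel gives r for 16 and for 12 libraries.

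The 9 members were set against 8 library measures, the length slope among them, in 72 relations adjusted together. The Defa share of counts passed with 5 members by exact permutation, at r = -0.86 for Muc2, -0.76 for Muc13, 0.86 for Tff3, 0.87 for Agr2 and 0.88 for Spink4 over 16 libraries. Over 12 libraries these were -0.39, -0.0075, 0.28, 0.42 and 0.77. The scaling factor passed with 4 members (Muc2, Tff3, Agr2 and Spink4), with r = 0.77, -0.92, -0.87 and -0.85 over 16 libraries and -0.20, -0.61, -0.41 and -0.47 over 12. Normalized CPM is already divided by this factor, which adds a negative part to each r. The permutation test does not allow for that, so these passes cannot be read as a relation beyond the division. The summed enterocyte markers (r = -0.63, adjusted p = 0.0144 by exact permutation, -0.38 over 12) and stem markers (-0.65, adjusted p = 0.0422, -0.41 over 12) passed with Tff3 alone, and the tuft markers with 0 members. Muc13 had r = 0.15 with the enterocyte sum over 16 libraries and -0.85 over 12. The part of the Defa share and of enterocyte or stem cells in these levels was not tested.

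Lyz1, the lysozyme of Paneth cells, passed with 3 of the 9 members. Its levels were normalized CPM too, divided by the same scaling factor as those of the members. Its r was 0.85 with Tff3 (adjusted p = 0.00239 by exact permutation), 0.76 with Agr2 (0.0174) and 0.73 with Zg16 (0.0299), and over the 12 libraries it was 0.79, 0.49 and 0.65. Clca1 had r = -0.28 with Lyz1 over 16 libraries and -0.88 over 12. The sum of the other goblet markers passed with 1 of 9 members, Fcgbp (r = 0.68 over both 16 and 12 libraries, adjusted p = 0.0385 by exact permutation, 0.32 without the 2 farthest). Ccl6 had the most reads of the markers in this sum. With Agr2 the r of the sum was -0.16 over 16 libraries and 0.86 over 12, with Tff3 -0.27 and 0.77 and with Zg16 -0.24 and 0.68. With Clca1 it was 0.081 and -0.24, with Muc2 0.39 and 0.032 and with Muc13 0.34 and -0.0072. For Retnlb the 2 values were 0.21 and 0.21 and for Spink4 -0.32 and -0.15. The part of admixed goblet cells in these levels was not tested.

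Each member was also ranked against 7816 other genes by Pearson's r over the 16 libraries, as a description of likeness. Clca1 and Retnlb were near the top of each other's lists, Clca1 at rank 5 for Retnlb and Retnlb at rank 15 for Clca1, and Tff3 was at rank 4 for Zg16. Other pairs that passed within groups were farther apart, with Agr2 at rank 578 for Tff3 and Tff3 at 595 for Agr2, Muc13 at 306 for Muc2 and Muc2 at 425 for Muc13, and Spink4 at 443 for Agr2 and Agr2 at 313 for Spink4. The genes most like Spink4 were Ang4, a Paneth cell angiogenin (r = 0.97), S100a1 and Defa-ps6. Those most like Clca1 were Apoh (0.95), Me1 and Mptx1, and those most like Retnlb were Gsn (0.91), Tpsg1 and S100a6. Agr2 was closest to Fxyd3 (0.96), Ppib and Fkbp11, of which Ppib and Fkbp11 are folding enzymes of the endoplasmic reticulum. Tff3 was closest to Cnpy2, Tmco1 and Tpt1 (0.94 each), Muc2 to Ptgfrn (0.94), Zbtb7a and Atxn2l, Muc13 to Serinc2 (0.97), Cdk18 and Eif4g1, Fcgbp to Mogs (0.86), Adgre5 and B4galnt2, and Zg16 to Bex3 (0.78), Slc25a13 and Defa-ps7. All these coefficients share the 4 libraries that stood apart.

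The other genes of mucus production were taken from 6 lists of 95 names, of which 94 were matched and 73 tested. In PBS+TNF against PBS+PBS, 11 of the 73 were called (15.1%, against 12.5% of all genes), 4 higher (7.15% of all genes were) and 7 lower (5.35%). None was called in the other 4 comparisons.

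Among the other mucins, 2 of 4 tested were higher after TNF. Muc1, a membrane mucin, was at 0, 0.511, 0.267 and 0 normalized CPM in PBS+PBS and at 14.3, 20.4, 11.5 and 12.3 in PBS+TNF (log2 fold change 5.95, SE 1.09, edgeR adjusted p = 0.00266). It was at 0.115 to 0.728 in DEX+PBS, and DEX+TNF split into 11.5 and 9.62 in libraries 1 and 2 and 0.204 and 0.349 in libraries 3 and 4, the same split as Nfkbia. Muc4, another membrane mucin, was at 3.01 to 12.7 in PBS+PBS and 21.2 to 61.0 in PBS+TNF (2.47, SE 0.73, adjusted p = 0.0349). Its call was lost without any one of PBS+PBS 1, 2 or 4 or PBS+TNF 2 or 4, and with a replicate block (adjusted p = 0.0649 in edgeR), the highest adjusted p over all alternatives being 0.197. Muc5ac, Muc5b, Muc6, Muc15, Muc16, Muc19 and Muc20 had too few reads to be tested.

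Of the 12 goblet lineage transcription factors, 3 were lower and 1 higher after TNF. Gfi1, a repressor that directs secretory precursors to goblet and Paneth fates, was at 17.2 ± 5.78 normalized CPM in PBS+PBS and 4.01 ± 1.83 in PBS+TNF (SD, n = 4 each, log2 fold change -2.05, SE 0.36, edgeR adjusted p = 0.00199). Foxa2, a forkhead factor that acts on mucin genes, was at 16.6 ± 4.65 and 4.80 ± 1.51 (-1.77, SE 0.30, adjusted p = 0.00152). Klf4, a factor of goblet cell maturation, had -0.85 (SE 0.25, adjusted p = 0.0335), and Elf3, an epithelial ETS factor, rose from 102 ± 18.8 to 235 ± 53.3 (1.21, SE 0.34, adjusted p = 0.0265). Elf3 was at 259 and 276 in DEX+TNF 1 and 2 and at 73.3 and 129 in DEX+TNF 3 and 4. Klf4 lost its call without PBS+PBS 1, 2 or 3 or PBS+TNF 3 (highest adjusted p over all alternatives 0.733), and Elf3 without the same libraries as Muc4 (highest 0.297).

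The enzymes that start, extend and cap mucin sugars were mostly uncalled (4 of 26). The starter transferases Galnt5 (log2 fold change -0.87, SE 0.21, edgeR adjusted p = 0.0108), Galnt10 (-0.76, SE 0.24, 0.0496) and Galnt12 (-0.71, SE 0.22, 0.0448) were lower after TNF, and the branching enzyme Gcnt4 was higher at low levels, 0.246 ± 0.155 against 1.87 ± 1.78 normalized CPM (2.96, SE 0.82, 0.0245). Galnt10 kept its call in 3 and Galnt12 in 4 of 16 fits without 1 library, Galnt12 was not called with a replicate block (edgeR adjusted p = 0.0523), and Gcnt4 in 13, losing it without PBS+PBS 1 or 2 or PBS+TNF 4. None of the 12 folding factors was called, with a list median of -0.22, and of the 14 genes of mucus release and hydration only Mep1a, which encodes meprin α, a subunit of brush border proteases, passed (-1.86, SE 0.47, adjusted p = 0.0155, lost without PBS+PBS 3 or PBS+TNF 4). Mep1a averaged 1.69 normalized CPM in PBS+TNF and 6.31 in PBS+PBS. The summed enterocyte markers were at 50.7 to 224 CPM in PBS+TNF and 284 to 488 in PBS+PBS. The part of enterocytes in the Mep1a value was not tested. None of 5 tested paralogs of the members was called. Without the 4 libraries that stood apart all 11 genes were called again, and the share of all genes called then is not given here. Without scaling factors only Muc1 was called (228 of all genes were called then). Of the 25 goblet markers outside the 9 genes, 3 were lower after TNF (Lrrc26, Bcas1 and Galnt12), where 5.35% of all genes were.

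**Figure D5:**
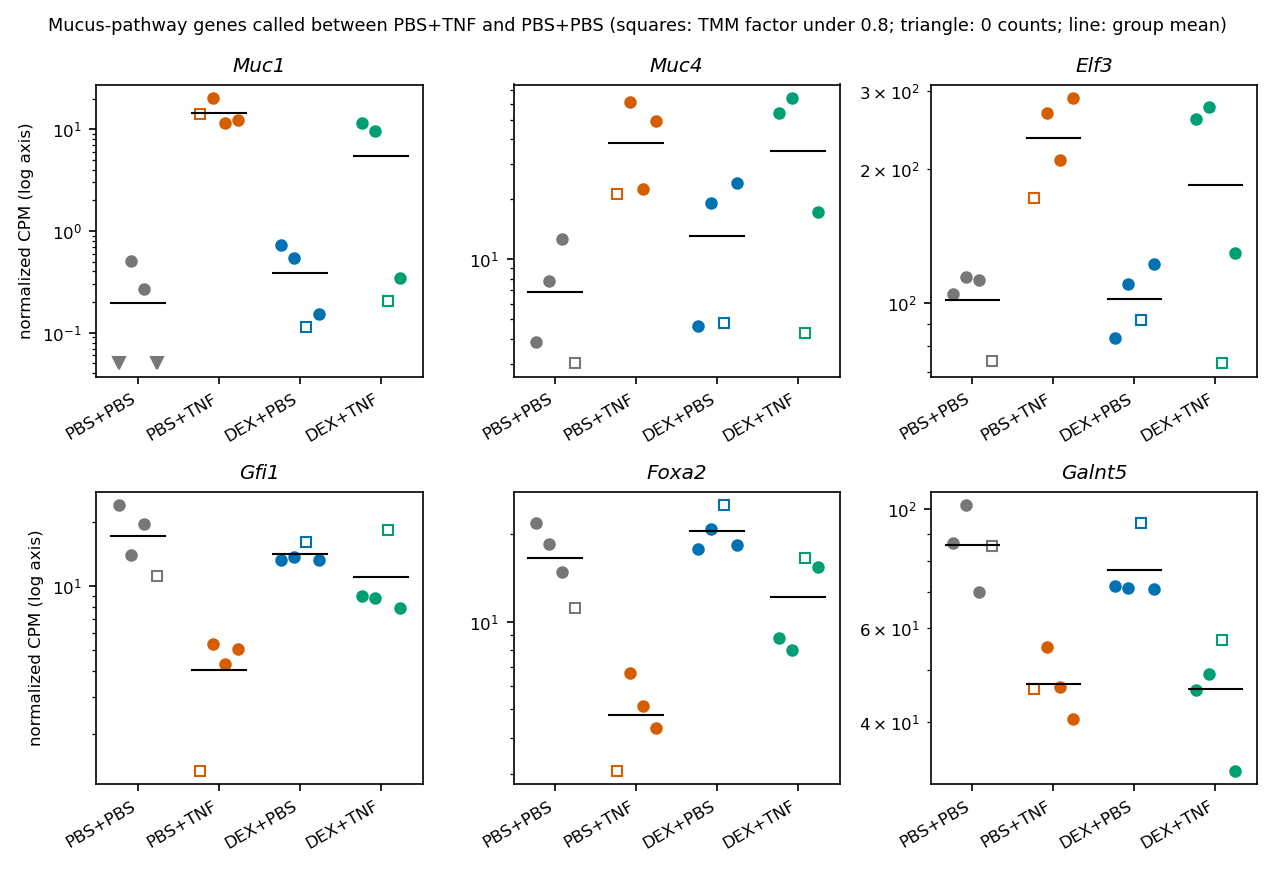
Normalized CPM (log axis) in the 16 libraries of Muc1, Muc4, Elf3, Gfi1, Foxa2 and Galnt5, by injection group, with triangles at the foot of a panel for 0 counts. These are among the 11 genes of the mucus lists called in PBS+TNF against PBS+PBS, and the others are not drawn. For Muc1 and Elf3, DEX+TNF 1 and 2 lie with or near PBS+TNF, and DEX+TNF 3 and 4 lie with or near the groups that received PBS second. Elf3 in DEX+TNF 4 (129) was above the highest library of those groups (122 in DEX+PBS 4). Galnt5 was not split this way, and DEX+TNF 3 and 4 (57.0 and 32.4) lie below every library of those groups.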

How the data were processed

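RNA of FACS-sorted Paneth cells (16 libraries, TruSeq Stranded mRNA kit) was aligned by the authors with STAR 2.7.10a to mm39 after FastQC 0.12, per the labels. The authors deposited 1 table of raw counts per gene, and the counting program, strand setting and treatment of reads with several matches are not given in the sources used here. 665 of 55414 identifiers had no name in GENCODE M39 on GRCm39 (0.00519% of counts). Lengths are those of canonical transcripts.

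Counts were fitted in R 4.3.3 with edgeR 4.0.16 (limma 3.58.1), with filterByExpr by group, TMM factors, a mean per group over all 16 libraries and robust quasi-likelihood tests. SEs are the log2 fold change over the root of its F. DESeq2 1.42.0 was an alternative. Log2 CPM used a prior count of 2. Correlations were tested by all 331776 permutations within groups. The edgeR fit was tried first on simulated counts, and the correlation test on random normal values. Further alternatives were other scalings, filters, a replicate block and leaving out libraries. Leaving out the 4 libraries with low scaling factors or the 3 with the least Clca1, and removing the length trend (a lowess span of 0.3), were chosen after seeing the data.

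The members and lists were chosen with earlier results of these data known. All 9 members are named, and from each list and comparison the called genes, up to 3 in each direction, and for each member the 3 most similar genes among those averaging 5 CPM or more. Some promoter windows and 1 marker gene are not reported here. The 3 goblet markers were named after their values were seen. Each library is 1 mouse, and p-values measure the spread between mice and their preparation together.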

Additional observations from a re-analysis of the deposited data

Results flagged for a closer look

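In 4 of the 36 combinations of a member and a group, 1 library lay far from the other 3, with a gap to its nearest neighbour over the range of log2 normalized CPM above Dixon's critical value. Chance alone is known to give this in about 1 in 20 groups. Agr2 in DEX+TNF was highest in library 3, with a ratio of 0.861. Spink4 in DEX+TNF was highest in the same library (0.916), and in DEX+PBS it was lowest in library 4 (0.870). Muc13 in PBS+PBS was lowest in library 4 (0.877). DEX+TNF 3 and PBS+PBS 4 are among the 4 libraries with low scaling factors, and DEX+PBS 4 is not. The part of the scaling factor in these gaps was not tested.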

How the results depend on the processing

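Of 1296 values of the members under 29 alternatives, 1217 kept their direction and side of the threshold, 68 changed sign (none of them called) and 11 became called. The count of members called in PBS+TNF against PBS+PBS was 1 in place of 0 with upper-quartile factors, DESeq2, only the groups compared or a length offset, and 0 to 1 without single libraries. Of all genes, 916 to 1698 were called there without single libraries and 228 to 2166 over the other alternatives (17.5% with DESeq2). In DEX+TNF against DEX+PBS the count of members was 1 with DESeq2 (2.2% of all genes) and 2 without DEX+TNF 3 and 4 (10.5%). Without single libraries it was 0 to 1 (0 to 362 of all genes). The 14 correlated pairs became 9 without DEX+TNF 3 and 4, 0 without the 4 libraries with low scaling factors, 3 with the length trend removed and 3 to 13 without single libraries. The cause was not tested. The labels do not say that a replicate number marks a shared litter or day, so the numbers were not taken to pair the samples. Same-numbered libraries deviated together more often than others: 12 of 24 such pairs had r above 0.1 (median 0.11, from -0.37 to 0.50, with 6 of 6 for number 2 and 1 of 6 for number 1), against 20 of 72 pairs with different numbers (median -0.061). Whether a number marks a shared batch was not tested. With a replicate block 17 pairs passed, 0 members were called in each comparison, and of the 11 genes of the mucus lists 9 were called again and Muc4 (adjusted p = 0.0649 in edgeR) and Galnt12 (0.0523) were not.

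With upper-quartile factors Muc13 in PBS+TNF against PBS+PBS was -0.057. Without scaling factors Clca1 in that comparison was 0.30, Agr2 and Spink4 in DEX+PBS against PBS+PBS 0.020 and 0.074, and Tff3 and Muc13 in DEX+TNF against PBS+TNF 0.27 and -0.027. DESeq2 gave Zg16 -0.11 in DEX+TNF against PBS+TNF. With the block Clca1 was 0.0058 in PBS+TNF and 0.43 in DEX+PBS against PBS+PBS, Muc2 -0.14 in the latter and the Fcgbp interaction 0.029. Without DEX+TNF 3 and 4, Muc2 was 0.24 in DEX+TNF against PBS+TNF and 0.21 in the interaction, and Muc13 0.28 against DEX+PBS and 0.22 in the interaction. Without the 4 libraries, Clca1 was 1.04 in PBS+TNF against PBS+PBS, Tff3, Clca1 and Spink4 were 0.27, 0.58 and 0.37 in DEX+PBS against PBS+PBS, Tff3 was 0.39 in DEX+TNF against PBS+TNF, Muc13 0.037 against DEX+PBS and the Zg16 interaction 0.32, and the r of Tff3 with Spink4 was -0.15, of Tff3 with Muc13 0.029 and of Agr2 with Spink4 -0.037. With the length offset Muc2 was -0.057 and Spink4 0.071 in DEX+PBS against PBS+PBS, Tff3 0.37 in DEX+TNF against PBS+TNF and Muc2 -0.074 against DEX+PBS. Leaving out single libraries changed the sign in PBS+TNF against PBS+PBS for Tff3 (-1.61 to 0.58), Clca1 (-0.82 to 0.77), Agr2 (-0.53 to 1.21), Spink4 (-0.25 to 1.18) and Muc13 (-0.15 to 0.23), in DEX+PBS against PBS+PBS for Muc2 (-0.34 to 0.32), Tff3 (-0.96 to 0.54), Fcgbp (-0.014 to 1.63), Zg16 (-1.11 to 2.32), Clca1 (-1.22 to 0.58), Agr2 (-0.85 to 0.39) and Spink4 (-0.60 to 0.53), in DEX+TNF against PBS+TNF for Muc2 (-0.90 to 0.065), Tff3 (-0.65 to 0.86), Zg16 (-0.35 to 2.66) and Muc13 (-0.13 to 0.22), in DEX+TNF against DEX+PBS for Muc2 (-0.40 to 0.48), Tff3 (-0.61 to 0.12) and Muc13 (-0.27 to 0.062) and in the interaction for Muc2 (-0.93 to 0.041), Tff3 (-0.74 to 1.46), Fcgbp (-0.73 to 0.91), Zg16 (-2.14 to 1.63) and Muc13 (-0.33 to 0.050).

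Over all genes, 1476 were called in PBS+TNF against PBS+PBS (228 without scaling factors, 570 at an adjusted p under 0.01), 1 in DEX+PBS against PBS+PBS (0 to 7), 40 in DEX+TNF against PBS+TNF (0 to 274), 40 in DEX+TNF against DEX+PBS (0 to 1286) and 0 in the interaction (up to 9 with DESeq2). Depth limited Zg16 most, with 1998 reads in all 16 libraries.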
